A study of Chlamydomonas reinhardtii with 42 samples.

Results

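A set of 100 genes of the green alga Chlamydomonas reinhardtii differed in transcript level between the strains DHC16 and A31 in the same direction at each of the 3 sampling times. They were taken from 13489 loci with a mean of at least 10 normalized counts and without a gene symbol in the authors' tables, among 17114 loci measured. For each locus the mean of log2(normalized count + 1) in A31 was subtracted from that in DHC16 at 0, 12 and 48 h. The 3 differences had to share a sign, which 4846 loci met, and the loci were ranked by the smallest of the 3 in size, called the score here. The 100 highest scores form the set, 41 higher and 59 lower in DHC16. The members were chosen by these measured strain differences, which are therefore given below as descriptions and carry no test.

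RNA was sequenced from A31 and DHC16 cultures at 0, 12 and 48 h after vitamin B12 (cobalamin) and thiamine were added to deplete ClpP1. Each of the 6 groups of strain and time has 3 sample records. The count table used here holds all of them except number 25 of A31 at 48 h, which was not analysed here, so that group has 2 libraries, numbered 19 and 22. All libraries carry the vitamin label, the 0 h ones included, and all cultures grew in Tris-acetate medium at 25°C, in light, dim light or darkness, without a statement of which library had which. The growth description spells the second strain DCH16, no label says which strain is depleted or lists a genotype, and none says whether replicates were separate cultures. Beside these libraries stands the authors' deposited table on A31 cultures treated for 2 or 8 h with rapamycin, which inhibits the growth-controlling kinase TOR.

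ClpP1 is a subunit of the Clp protease, a barrel-shaped complex in the chloroplast stroma that degrades unneeded or damaged proteins. It is encoded in the chloroplast genome, and in this alga the vitamins can act on it through a nuclear gene whose product a chloroplast transcript needs: thiamine acts on a riboswitch and cobalamin on a repressible promoter. The 0 h values show the strains at the start of the vitamin treatment, the others 12 and 48 h into it. Each value is an average over a culture, so fewer cells with a transcript and less of it per cell cannot be told apart.

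Libraries held 7458423 to 13699705 reads, and 1 read was worth 0.703 to 2.04 normalized counts. The A31 libraries at 48 h stood apart. By rank correlation, averaged over libraries, 19 was closer to A31 at 0 h (0.943) than at 12 h (0.813), and 22 was closer to 12 h (0.919) than to 0 h (0.775). Against library 19 alone, all 100 members kept their sign at 48 h, with a smallest difference of 0.41 and a median of 1.81 in size. Against library 22 alone all 100 also kept it, with a smallest difference of 0.66 and a median of 2.40.

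None of the members has a gene symbol, which the choice itself ensured, and 1, Cre56.g791150, has a description in the authors' tables, predicted protein. The authors' tables therefore give no role for the members, and they are described here by level, place and behaviour. Their median mean level was 56.6 normalized counts, below the 110.6 of all loci that could be chosen. Scores ran from 1.12 to 7.45 with a median of 1.34. At the lower end, Cre03.g185350, Cre01.g031450 and Cre08.g366600 had scores of 1.125, 1.124 and 1.123. The next loci, Cre15.g641750, Cre15.g641600 and Cre15.g639900, had 1.121, 1.118 and 1.118 and are not members.

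At 0 h the libraries of the strains did not overlap for 93 members, at 12 h for 98 and at 48 h for 98, beside 33.1%, 34.9% and 45.5% of the loci that could be chosen. At all 3 times they did not overlap for 90 members, beside 7.10% of those loci. The choice used the same values, so nothing is read from these shares.

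The members were not spread evenly along the genome. In a locus name such as Cre03.g183650 the first number gives the chromosome, here 3, or a scaffold that is not placed on a chromosome. The second mostly rises along it. For the 10449 candidate loci matched to the RefSeq table of the assembly Chlamydomonas_reinhardtii_v5.5, the table's chromosome was that of the name for 100%. The rank correlation of the locus number with the table's order was 0.99 on chromosome 3 but 0.81 on chromosome 15. Chromosome 3 held 25 members, 2.26% of its 1104 candidates, and 24 of them were lower in DHC16. Chromosome 15 held 14 of its 213 candidates, 6.57%, and 13 of those members were higher in DHC16. Over all chromosomes 86 of 12662 candidates, 0.679%, were members, and over all scaffolds 14 of 827, 1.69%.

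On chromosome 3, 22 of the 25 members lay within a single stretch of neighbouring loci, from Cre03.g183300 to Cre03.g194535. Within it the running median of the strain difference over 25 loci, averaged over the times, stayed below -0.5. This limit was set after the values were seen, and the strain difference itself marks the stretch. All 22 members in it were lower in DHC16, with median log2 differences of -1.59, -1.41 and -1.70 at 0, 12 and 48 h.

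**Figure D1:**
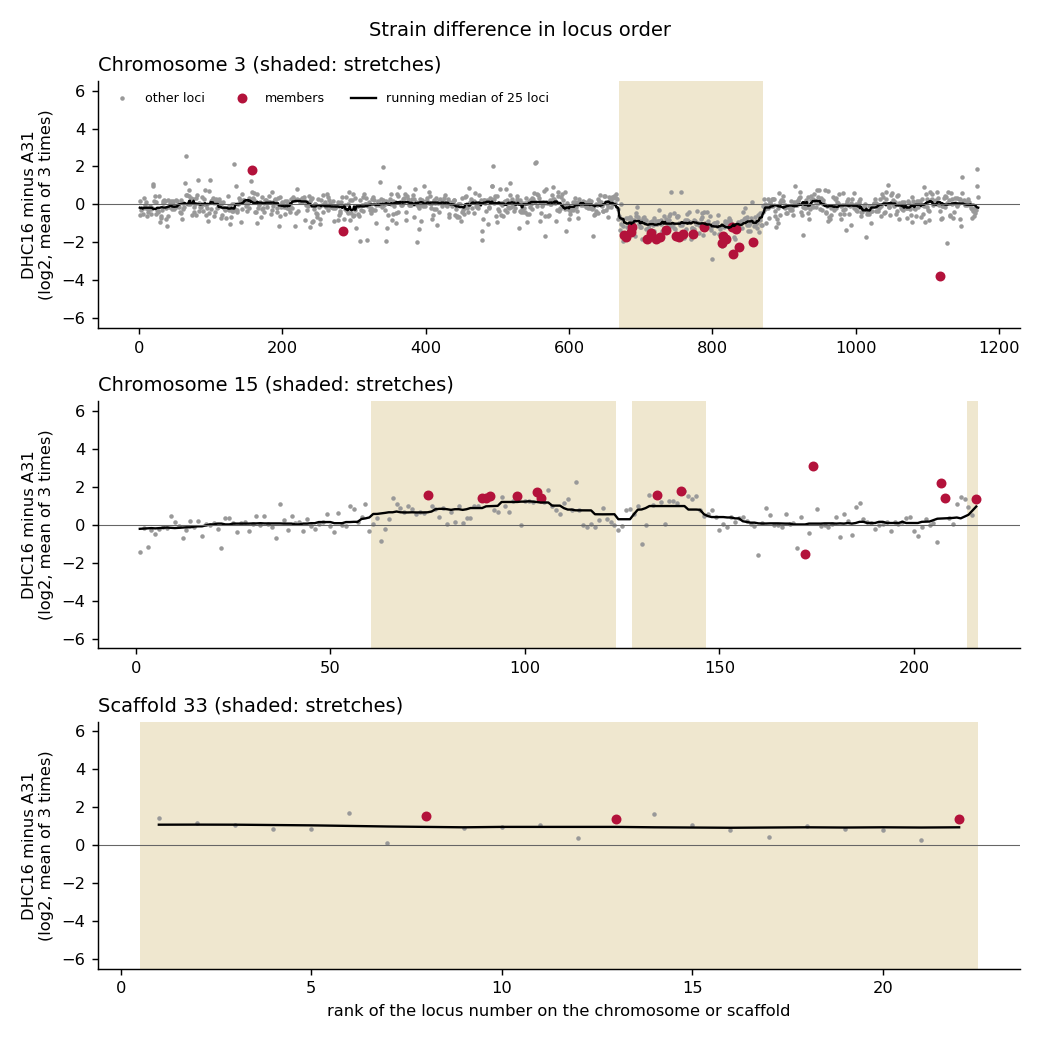
Strain difference (DHC16 minus A31, log2 of normalized count + 1, mean of the 3 times) of each locus with a mean of at least 10 normalized counts, against the rank of its locus number on chromosome 3, chromosome 15 and scaffold 33. Dark circles are members, small points other loci, the line is the running median of 25 loci and the shading marks the stretches: the line falls to about 1 log2 unit below 0 over 201 loci of chromosome 3 and lies about as far above 0 on scaffold 33.

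Loci of that stretch outside the set of 100 differed too. The stretch held 201 loci with a mean of at least 10, of which 179 were not members. Their median log2 difference was -0.97 at 0 h, -0.99 at 12 h and -0.94 at 48 h, that is, DHC16 to A31 ratios of 0.512, 0.504 and 0.520. Lower values in DHC16 at all 3 times were found for 157 of the 179, 87.7%, where 19.1% of all 14252 such loci met that. The remaining 970 such loci of chromosome 3 had medians of -0.03, -0.03 and 0.03. The same strain differences marked the stretch, those of the 179 loci included. A raised share inside it is therefore built in, and both contrasts are descriptions only.

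The change at its ends was abrupt. Going up in locus number, the running median was -0.16 at Cre03.g183200 and -0.70 at Cre03.g183350, and at the far end it was -0.68 at Cre03.g194500 and -0.16 at Cre03.g194700. Ordering the loci by the RefSeq table in place of the locus number gave a stretch of 189 loci that held all 187 of those that could be ordered both ways.

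The members are the loci without a symbol whose differences were widest in a stretch where most loci differed. Cre03.g191450 had 116, 96.9 and 125 normalized counts in the A31 libraries at 0 h, 345, 267 and 297 at 12 h, and 132 and 205 at 48 h. In DHC16 it had 42.9, 25.1 and 41.8 at 0 h, 90.3, 78.7 and 106 at 12 h, and 66, 42.9 and 47.9 at 48 h. The strains did not overlap at any time, while both had their highest libraries at 12 h, and the log2 differences were -1.63, -1.72 and -1.66.

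Cre03.g183650 changed less with time in A31, with 107, 127 and 150 at 0 h, 126, 143 and 87.7 at 12 h, and 141 and 101 at 48 h. Its DHC16 values were 44.9, 67.5 and 54.8 at 0 h, 37.3, 41.3 and 42.7 at 12 h, and 38.3, 24.2 and 24 at 48 h. The widest score in the stretch was that of Cre03.g192050, which is described with the time changes below. The neighbours Cre03.g184200 and Cre03.g184300, both members, had differences of -1.24, -1.42 and -1.65 and of -1.24, -1.14 and -1.18. Cre03.g191350, next to Cre03.g191450, had -1.88, -1.15 and -3.02.

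The stretch also covers 16 loci that the authors' tables describe, 13 of them with a symbol and so left out by the choice. They are named here after their values were seen, and they too entered the running median. All 16 were lower in DHC16 at 0 h and at 12 h, and 14 at 48 h, with medians of -1.04, -0.93 and -1.14. SSS2, a soluble starch synthase, which elongates the glucan chains of starch, had 7406, 7335 and 7084 normalized counts in A31 and 4133, 3811 and 4460 in DHC16 at 0 h. ODA13, a light chain of the flagellar outer dynein arm, the motor that drives the beat, had 1390, 1515 and 1774 in A31 and 943, 681 and 695 in DHC16. For VPS46, a subunit of the ESCRT-III complex that remodels membranes, A31 had 2541, 1784 and 2161 and DHC16 1344, 1013 and 1354. The strains did not overlap at 0 h for any of these 3, beside 33.1% of the candidate loci without overlap. They did overlap at 0 h for the described loci RAN1, CPLD28 and Cre03.g189350. The Ran-like small GTPase RAN1 had 2981, 3374 and 3034 in A31 and 2642, 3230 and 2291 in DHC16.

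Further described loci of the stretch were lower in DHC16 as well, with exceptions at 48 h. RBOL2, a respiratory burst oxidase, had log2 differences of -1.34, -1.32 and -2.64. The flagellar associated protein FAP251 had -1.84, -0.54 and -1.66. RAD54A, a DNA repair and recombination protein, had -1.34, -1.77 and -2.27, at low levels of 21.3, 41.2 and 22.5 in A31 and 10.2, 9.65 and 10.4 in DHC16 at 0 h. These exceptions were SERRS2, a seryl-tRNA synthetase, which charges tRNA with serine, at -0.85, -0.90 and 0.79, and the glycoside-hydrolase-like GLH1 at -0.87, -1.06 and 0.10. At 48 h SERRS2 had 307 and 1782 in the A31 libraries 19 and 22, and 1618, 992 and 1315 in DHC16. GLH1 had 382 and 1043 in A31, and 679, 731 and 623 in DHC16. For both loci every DHC16 library of 48 h lay above library 19 and below library 22.

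Members higher in DHC16 gathered on chromosome 15 and scaffold 33. On chromosome 15 the running median passed 0.5 in 3 runs of 63, 19 and 3 loci, from Cre15.g637400 to Cre15.g640750, from Cre15.g641000 to Cre15.g641950 and from Cre15.g647350 to Cre15.g647450. These 85 loci held 10 members, all higher in DHC16, with medians of 1.41, 1.29 and 1.75 at 0, 12 and 48 h. The 75 loci of the runs that were not members had medians of 0.68, 0.84 and 0.95, and 48 of them, 64.0%, were higher in DHC16 at all times, beside 16.8% of all loci. The same strain differences marked these runs, and scaffold 33 below, so a raised share is built in and is a description only.

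Here the edges were less sharp and the runs depended on the order. By the RefSeq order a single run of 71 loci was found on chromosome 15. In the other 131 loci of this chromosome with a mean of at least 10 normalized counts, the medians were 0.21, 0.06 and 0.07, with 4 members.

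On scaffold 33 the running median passed 0.5 at all 22 loci with a mean of at least 10 normalized counts, from Cre33.g782100 to Cre33.g783200. Single loci varied, and Cre33.g783150 had differences of 0.36, 0.58 and -0.08. The scaffold is shorter than the window of 25 loci, so the running median shows no local pattern along it. Its 3 members, Cre33.g782550, Cre33.g782750 and Cre33.g783200, had median differences of 1.23, 1.32 and 1.46. The 19 other loci had medians of 0.96, 0.95 and 0.99, ratios of 1.94, 1.93 and 1.99, and 15 of them, 78.9%, were higher at all times. The 1 described locus there, NDA2, a type-II NADH dehydrogenase that passes electrons to the quinone pool, had differences of 1.02, 1.49 and 2.51. Its 0 h values were 536, 475 and 522 in A31 and 956, 1079 and 1085 in DHC16.

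Cre33.g782750 was among the more abundant members, with 423, 444 and 555 normalized counts in A31 and 1176, 1137 and 992 in DHC16 at 0 h. At 12 h it had 310, 425 and 418 against 1011, 1040 and 1070, and at 48 h 388 and 164 against 647, 648 and 801. No DHC16 library fell below any A31 library at any time. On chromosome 15, Cre15.g639500 had 160, 189 and 131 in A31 at 0 h, 117, 136 and 121 at 12 h, and 181 and 188 at 48 h. DHC16 had 419, 540 and 450, then 453, 450 and 401, then 504, 412 and 446. The level stayed between 117 and 189 in A31 and between 401 and 540 in DHC16, and its differences were 1.55, 1.79 and 1.29.

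The most abundant member of the run was Cre15.g638400, with 974, 1297 and 850 in A31 and 2902, 4477 and 3399 in DHC16 at 0 h. The candidates Cre15.g639134, Cre15.g639150 and Cre15.g639200, consecutive by locus number, were all members, with 0 h differences of 1.20, 1.18 and 1.32. The pair Cre15.g639750 and Cre15.g639800, adjoining by locus number, had 1.99 and 1.43.

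The other 28 chromosomes and scaffolds with enough loci had running medians between -0.46 and 0.34, so no other stretch passed the limit. A further 178 loci, 9 members among them, lay on scaffolds too short for a running median.

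The levels of the stretch loci that were not members were also taken library by library, to show the spread behind the medians. Each library was set relative to the loci outside the stretches, after each locus was centred on its mean over the libraries. The same libraries marked the stretches, and centring puts the strains on opposite sides of 0, so the lack of overlap is a description. The chromosome 3 stretch had medians of 0.35 to 0.62 in the 8 A31 libraries and of -0.59 to -0.38 in the 9 DHC16 libraries. Chromosome 15 and scaffold 33 together had -0.58 to -0.31 in A31 and 0.32 to 0.56 in DHC16. The strains did not overlap in either, and the A31 libraries 19 and 22 fell with the other A31 libraries, at 0.47 and 0.62 for chromosome 3. The files hold RNA only, and whether the DNA of these stretches differs between the strains was not measured.

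**Figure D2:**
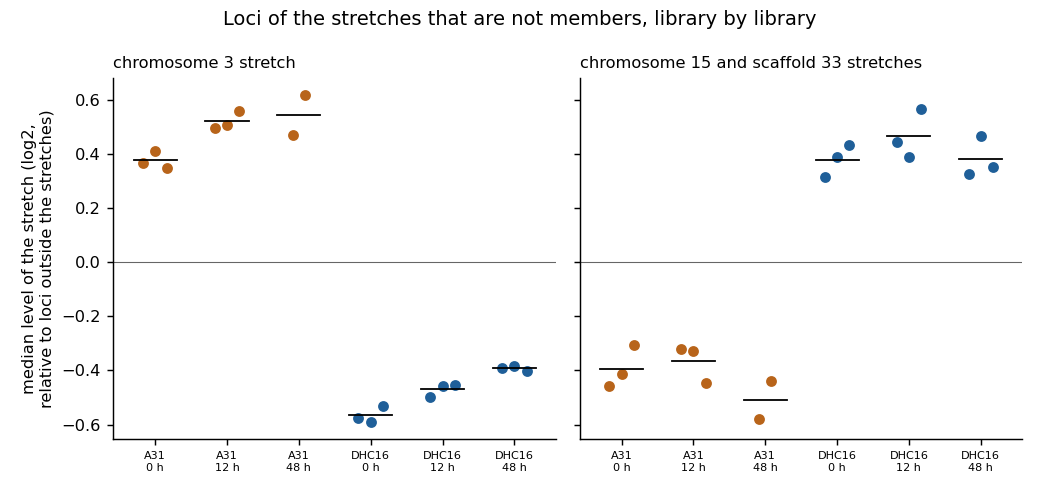
Median level of the stretch loci that are not members, in each library (points) with group means (bars), log2 relative to the loci outside the stretches, for A31 and DHC16 at 0, 12 and 48 h. On the left, chromosome 3, all A31 libraries lie at 0.35 or above and all DHC16 libraries at -0.38 or below; on the right, chromosome 15 with scaffold 33, the strains trade places.

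Outside the stretches lay 65 members, 28 higher and 37 lower in DHC16. Their differences were wider and less even over time than inside. The range of the 3 differences of a member had a median of 0.50 in the chromosome 3 stretch, 0.52 in chromosome 15 and scaffold 33, 1.43 in the 28 higher members outside and 1.10 in the 37 lower ones. Of the 28, 22 had their widest difference at 48 h. Over the 100 members, the widest difference was at 48 h in 63, at 0 h in 23 and at 12 h in 14. The share of all loci with their widest difference at 48 h was not computed, so nothing about the members is read from these counts. Among the candidate loci too, the strains most often did not overlap at 48 h, 45.5% beside 33.1% at 0 h and 34.9% at 12 h.

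**Figure D3:**
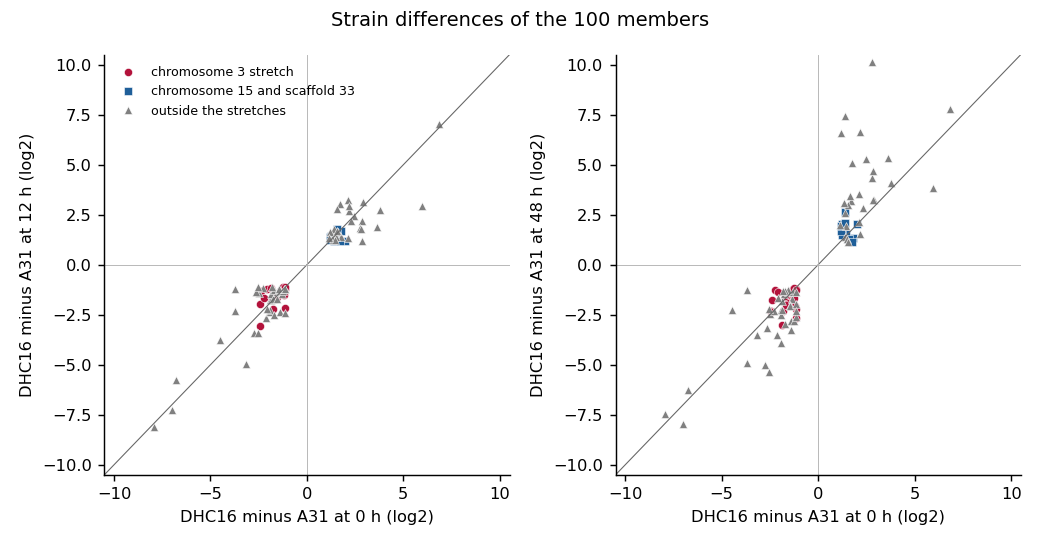
Strain difference (DHC16 minus A31, log2) of the 100 members at 12 h (left) and at 48 h (right) against that at 0 h, by place in the genome; the diagonal marks equal differences. Members of the stretches lie between 1.12 and 3.05 log2 units from 0, while 5 members outside them rise above 5 at 48 h from below 2.5 at 0 h.

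The highest scores belonged to members that were at or near 0 in a single strain. A floor of 3 reads in each library was used as the limit of detection, for counting error only. At or under it in every library of a strain were 4 members, Cre39.g785900 and Cre40.g786172 in A31 and Cre39.g786050 and Cre71.g794400 in DHC16. All 4 are on scaffolds.

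Cre39.g786050 had 179, 285 and 276 normalized counts in A31 at 0 h, 256, 224 and 372 at 12 h, and 356 and 268 at 48 h. In DHC16 it had 0 in all 6 libraries of 0 and 12 h, and 1.78, 0 and 0.998 at 48 h, at most 2 reads. With the floor in place of 0, A31 was at least 29.2-fold higher at 0 h and at least 75.8-fold higher at 12 h.

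Its neighbour Cre39.g785900 was the reverse, with 0 reads in all 8 A31 libraries. In DHC16 it had 59.2, 57.9 and 67.9 at 0 h, 5.89, 5.90 and 8.37 at 12 h, and 16.1, 20.3 and 6.99 at 48 h. DHC16 was at least 17.2-fold higher at 0 h, 2.04-fold at 12 h and 2.56-fold at 48 h. These are the 2 candidate loci of scaffold 39, adjacent in locus order and opposite in direction, and of the 9 pairs of adjacent members the other 8 shared a direction. Of the 9 pairs, 5 lie inside a stretch, where all members share a direction. The share of adjacent candidate loci with a shared direction was not computed, so nothing is read from this count. By the RefSeq order, which holds 70 of the members, 6 pairs of members were adjacent.

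Cre71.g794400 had 120, 113 and 93.5 in A31 at 0 h, 46.9, 48.3 and 67.5 at 12 h, and 149 and 75.6 at 48 h. In DHC16 a single library, at 48 h, had any, 1.78 normalized counts. A31 was at least 15.3-fold higher at 0 h and 15.9-fold at 12 h. Cre40.g786172 had 0.763 to 2.24 in the 8 A31 libraries. Its DHC16 libraries had 42.9, 38.6 and 26.1 at 0 h, 13.7, 12.8 and 13.4 at 12 h, and 34.8, 25 and 32.9 at 48 h.

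A little above the floor stood Cre29.g778950 and Cre48.g789400. Cre29.g778950 had 254, 327 and 460 in A31 at 0 h, 877, 1192 and 594 at 12 h, and 197 and 458 at 48 h. DHC16 had 4.08, 0 and 2.61, then 2.94, 5.90 and 5.02, then 0, 0.781 and 0, never more than 6 reads. Cre48.g789400, the only candidate of scaffold 48, had 1.12, 3.05 and 2.11 in A31 at 0 h, 0 in the 3 libraries at 12 h, and 1.57 and 0 at 48 h. DHC16 had 363, 309 and 354 at 0 h, 124, 168 and 109 at 12 h, and 345, 386 and 339 at 48 h. At 12 h DHC16 was at least 37.6-fold higher. In DHC16 its level was lowest at 12 h and the 0 h and 48 h libraries overlapped.

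**Figure D4:**
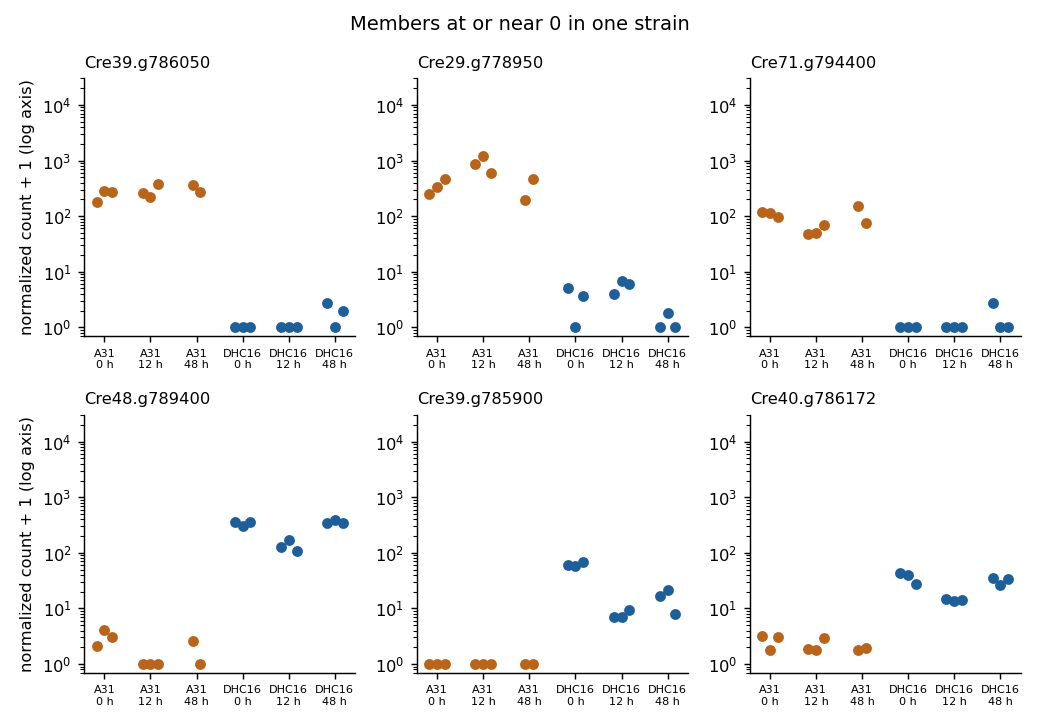
Normalized counts + 1 (log axis) in each library, one point per library, of 6 members at or near 0 in one strain. The top row is at 46.9 or above in all A31 libraries and at 5.90 or below in all DHC16 libraries, and the bottom row is at 3.05 or below in A31 and at 5.89 or above in DHC16.

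Among the remaining high scores, Cre25.g771325 and Cre25.g771593 share scaffold 25 and were both lower in DHC16, by -3.17, -4.96 and -3.53 and by -4.49, -3.74 and -2.27 on the log2 scale. Cre25.g771325 had 8.95 to 55.5 in A31 and 0 to 5.99 in DHC16. Cre15.g644750, higher in DHC16 at 2.89, 3.14 and 3.23, had 0 to 7.83 in A31 and 12.8 to 69.2 in DHC16. Cre16.g663450 had 454, 475 and 348 in A31 and 34.7, 25.1 and 35.3 in DHC16 at 0 h, and differences of -3.71, -2.30 and -4.94. Cre13.g587300 had 120, 158 and 207 against 16.3, 15.4 and 44.4 at 0 h and differed by -2.76, -3.43 and -5.0. The remaining members named for their scores, Cre12.g491650, Cre12.g544450 and Cre07.g353750, had their narrowest differences at 2.17, 2.17 and -2.12.

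In 6 members, all higher in DHC16, the difference at 48 h exceeded the larger of the other two by 2.84 or more, and in the other members by 1.92 at most. Cre07.g343050 had 4.48, 3.81 and 7.73 in A31 at 0 h, 10.1, 14 and 16.4 at 12 h, and 4.70 and 10 at 48 h. DHC16 had 77.6, 21.2 and 40.5, then 56.9, 53.1 and 39.3, then 8442, 8530 and 9365. Its difference was 2.77 at 0 h, 1.82 at 12 h and 10.1 at 48 h, the widest of any member at any time.

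Cre02.g106450 reached 13494, 12162 and 10723 in DHC16 at 48 h, from 474, 112 and 213 at 0 h and 140, 310 and 156 at 12 h. A31 had 69.4, 42.7 and 38.7, then 27.7, 41.3 and 21.2, and at 48 h 41.5 in library 19 but 341 in library 22. Cre01.g060000 had 1666, 4952 and 2158 in DHC16 at 48 h, beside 23.6 to 73.5 at the earlier times and 7.79 to 19.8 in A31.

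Cre12.g505100 had 1240, 922 and 1188 in DHC16 at 48 h, beside 13.3 and 72.8 in the A31 libraries 19 and 22. Cre12.g521950 had 381, 411 and 420, beside 7.84 and 10.9. For Cre02.g107000 the DHC16 libraries had 42.9, 19.3 and 37.9 at 0 h, 2.94, 4.92 and 3.35 at 12 h, and 146, 232 and 225 at 48 h. Its A31 libraries had 17.9, 9.15 and 14.1, then 0.838, 0.779 and 0, then 3.14 and 0. In all 6 loci the DHC16 libraries of 48 h stood above every other library. Cre56.g791150, the predicted protein, also ended high in DHC16, with 6009, 5614 and 5734 at 48 h against 143 and 144 in A31, and differences of 3.61, 1.90 and 5.33.

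**Figure D5:**
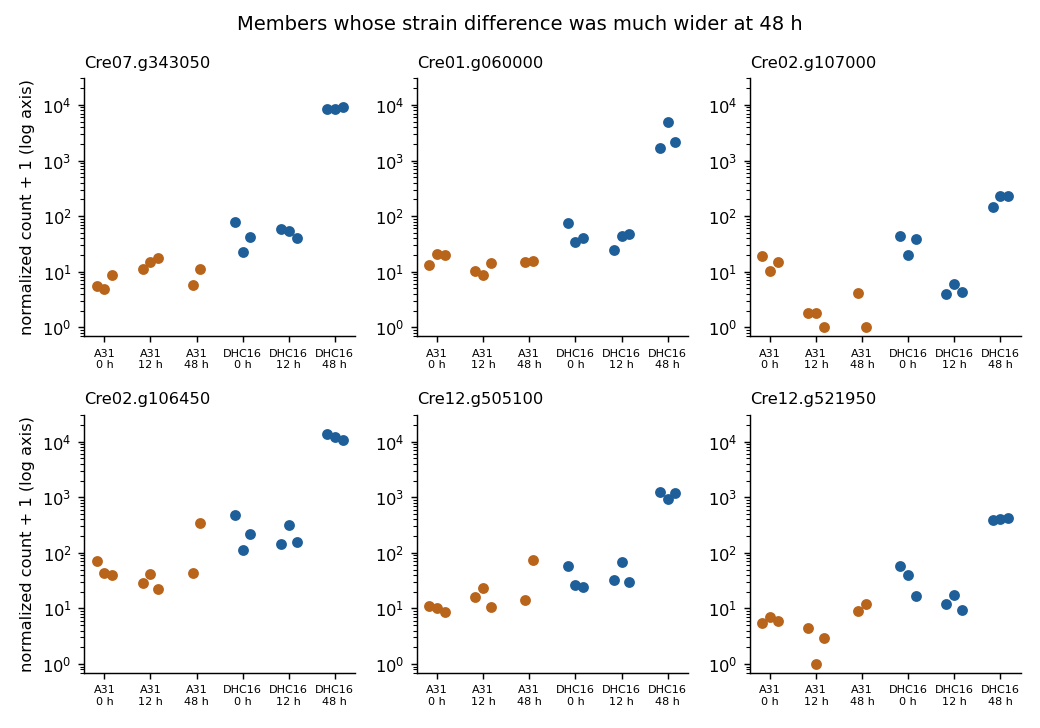
Normalized counts + 1 (log axis) in each library, one point per library, of the 6 members whose strain difference at 48 h most exceeded those at 0 and 12 h. In each panel the 3 DHC16 libraries of 48 h are the highest points, from 146 in Cre02.g107000 to 13494 in Cre02.g106450, and DHC16 lies above A31 at the earlier times as well.

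The change with time averaged over both strains was tested, since it does not use the strain differences. At 48 h that holds only approximately, because A31 had 2 libraries there. limma-trend was fitted on 14422 loci, with Benjamini-Hochberg adjustment at 0.05. No culture without vitamins was analysed here, so effects of the vitamins and of time cannot be told apart. At 12 h, 37 members rose and 23 fell, beside 36.2% and 33.6% of all loci tested, and 9 of the 37 passed the minimum mean of 10 only through their 12 h libraries. At 48 h, 39 rose and 21 fell, beside 31.7% and 27.5%. The median change of the members was 0.22 at 12 h and 0.18 at 48 h, beside 0.02 and 0.06 over all loci. After leaving out A31 library 22, 35 rose and 14 fell at 48 h, beside 26.5% and 22.2% of all loci. Scaling by the total of reads moved the median of all loci to 0.55 at 12 h and 0.45 at 48 h. Then 52 members rose and 11 fell at 12 h, beside 53.9% and 15.8% of all loci, and 48 rose and 10 fell at 48 h, beside 48.1% and 12.7%. With quantile normalization 31 rose and 33 fell at 12 h, beside 31.6% and 39.8%, and 30 rose and 30 fell at 48 h, beside 27.1% and 29.9%.

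Outside the stretches, 21 of the 37 members lower in DHC16 rose at 12 h and 4 fell, with a median change of 1.36. Of these 21, 9 have a mean below 10 in the 11 libraries of the other times, so they entered the set only through their 12 h level and had to rise; the count and the median are given as a description and not read against all loci. Of the 28 higher in DHC16, 4 rose and 13 fell, with a median of -0.72. Scaled by the total of reads, where 53.9% of all loci rose and 15.8% fell, 23 of the 37 rose and 1 fell, and 9 of the 28 rose and 9 fell. With quantile normalization, where 31.6% rose and 39.8% fell, the counts were 18 and 8, and 2 and 16. The 37 include the same 9 members under both scalings, so their counts are not read against all loci there either. At 48 h 17 of the 37 rose and 7 fell, and 11 of the 28 rose and 9 fell. In the chromosome 3 stretch 8 of 22 members rose and 4 fell at 12 h, and in the other stretches 4 of 13 rose and 2 fell. Whether these classes differ from each other was not tested.

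The largest rise at 12 h was that of Cre04.g226550. It had 5.6, 4.58 and 4.22 in A31 at 0 h and 236, 400 and 432 at 12 h, and 0, 0 and 2.61 against 84.4, 113 and 102 in DHC16. Both strains thus rose to levels that did not overlap with each other or with 0 h, by a mean log2 change of 5.96 with a standard error of 0.42 and a limma adjusted p of 3.3e-09. At 48 h it was 33.7 and 279 in A31 and 24.1, 23.4 and 13 in DHC16, a mean change of 3.92 ± 0.45 (SE), with library 19 far below library 22.

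Cre03.g192050 in the chromosome 3 stretch reached the highest level of the 5 largest rises at 12 h. A31 had 31.3, 87 and 40.1 at 0 h, 3105, 3988 and 3658 at 12 h, and 248 and 2346 at 48 h. DHC16 had 4.08, 11.6 and 10.4, then 346, 462 and 490, then 129, 173 and 164. The mean change was 5.88 ± 0.40 (SE) at 12 h and 4.04 ± 0.42 at 48 h, and the strain differences were -2.44, -3.05 and -2.30. Cre03.g193900 in the same stretch had mean changes of 5.70 and 3.44.

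Cre12.g495450 rose by 5.13 at 12 h and 3.59 at 48 h on the log2 scale, Cre03.g163266 by 4.99 and 2.67, and Cre03.g207800 by 3.98 and 3.67. Cre03.g163266 is among the 9 members that rose at 12 h and passed the minimum mean only through their 12 h libraries. Its rise at 12 h was therefore required by the choice. For Cre07.g343050 the mean change at 48 h, 4.04 ± 0.28 (SE), averaged a change of 0.37 in A31 and of 7.72 in DHC16, and so describes neither strain.

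The largest fall was that of Cre12.g541400. It had 39.2, 55.7 and 40.1 in A31 at 0 h, 0.838, 0.779 and 0 at 12 h, and 5.49 and 0 at 48 h. DHC16 had 161, 280 and 172, then 15.7, 10.8 and 12.5, then 7.13, 11.7 and 12. The mean change was -4.39 at 12 h with a standard error of 0.37 and a limma adjusted p of 2.5e-08, and -4.17 at 48 h with a standard error of 0.39. Cre12.g518500 fell from 186, 211 and 103 in A31 and 464, 517 and 440 in DHC16 at 0 h to 3.86 to 19.5 and 51 to 97.3 at 12 h, a mean change of -3.46.

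At 12 h Cre02.g107000 had a mean change of -3.03, Cre16.g659800 of -2.62 and Cre01.g006300 of -1.89. At 48 h Cre13.g587300 had -2.82, Cre06.g286100 -2.39 and Cre15.g647450 -1.95. All of these passed the limma threshold.

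The authors' deposited table on rapamycin lists 25 members as past the authors' thresholds at 2 or 8 h in A31, beside 13.3% of the candidate loci. At 2 h it lists 7 that rose and 13 that fell, beside 4.27% and 5.53%. At 8 h it lists 7 that rose and 10 that fell, beside 3.21% and 5.09%. In both lists stand 12 members, and 5 of the 25 lie in the stretches of chromosomes 3 and 15 and scaffold 33. The A31 records of 0 h carry the same numbers in both experiments, and whether they are the same libraries was not tested. The authors' deposited 0 h levels, whose scale is not known here, were not in proportion to the normalized counts. Cre12.g544450 had 6.24 there beside a mean of 0.977, and Cre13.g587300 had 2.13 beside 161. The values of the experiments are therefore set side by side only.

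In the authors' deposited table Cre02.g106450 had log2 fold changes of 3.67 at 2 h and 4.50 at 8 h, the highest of any member. Cre12.g505100 had 2.75 and 2.59 and Cre03.g156500 2.02 and 2.32 in the authors' deposited table. Cre56.g791150 stands in the authors' deposited table at 8 h alone, with 1.93. The vitamin libraries have their own values for these loci, and A31 library 22 at 48 h was higher than library 19 for Cre02.g106450, Cre12.g505100 and Cre03.g156500, at 117 beside 49.4 for the last.

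At the other end, Cre29.g778950 had -2.97 at 8 h in the authors' deposited table, the lowest of any member. Cre12.g544450 had -2.38 and -1.28, Cre07.g323300 -2.29 at 2 h, and Cre03.g163266 -2.04 and -2.03 in the authors' deposited table. Cre13.g587300 had -1.81 and -1.71 there, in the authors' deposited table. In the chromosome 15 run, Cre15.g638400 had 1.81 and 1.29 and Cre15.g639150 1.36 and 1.18 in the authors' deposited table.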

How the data were processed

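The authors deposited normalized counts as a signal per locus and library, for 17 libraries and 17114 loci. Each value was a whole number of reads times 1 factor per library, within a tolerance of 0.01 for 100% of values, so whole reads were recovered. The authors' deposited rapamycin table gives mean levels as a signal, log2 fold changes, p-values and adjusted p-values for loci past their thresholds, per the file headers. The submitters' processing notes name edgeR 3.0.8, HTSeq 0.5.3p9, TopHat 1.3.1 and CASAVA 1.8.2 without their roles. Build, annotation, strand and normalization are not stated in what was used here, so the values of near-identical copies and overlapping genes are uncertain. Records labelled rapamycin repeat the strains, times and numbers of the vitamin records with an identical table, which was read a single time, as the vitamin experiment.

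Members and lists were chosen with earlier results of these data known. Strain differences have no test. Time changes were tested with limma 3.58.1 (R 4.3.3) on log2(normalized count + 1), 6 group means, loci with a mean of at least 1 CPM of the recovered reads, tested on simulated data first. This scale understates changes of low loci. Alternatives were scaling, pseudocount, filters, single libraries left out, a replicate block, edgeR 4.0.16 and DESeq2 1.42.0 on the recovered reads. The p-values rest on the spread among the libraries alone, and this spread may be technical. Named are the 10 highest scores in each direction, adjacent members, the 5 largest rises and falls at 12 and 48 h, members in the rapamycin table and loci at the rank limit; members shown for their place in a stretch or their 48 h level were picked after their values were seen. Locus order uses the identifiers. The RefSeq table of Chlamydomonas_reinhardtii_v5.5, which matched 70 members, served to check chromosomes, to reorder the stretches and to count neighbours in its order. No coordinates or sequences are given.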

Additional observations from a re-analysis of the deposited data

Results flagged for a closer look

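Only the members named for their scores or their largest time changes were searched for opposite changes with time. In 3 of them, all libraries of the later time lay below those of 0 h in A31 and above them in DHC16. The share of all loci that meet this was not computed, and the differences were not tested. For Cre02.g107000 at 48 h the change in A31 was -2.81 and that in DHC16 2.60 on the log2 scale, a difference of 5.41. Cre16.g659800 at 48 h had -1.25 in A31 and 0.33 in DHC16, a difference of 1.57. Its lowest DHC16 library at 48 h, 431 normalized counts, was just above the highest at 0 h, 426. At 12 h, Cre16.g663450 had -0.89 in A31 and 0.52 in DHC16, a difference of 1.41. Among these, those at 48 h rest on 2 A31 libraries.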

How the results depend on the processing

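The ranking depended on the scaling: 52 of the 100 loci were chosen again when values were scaled to the total of reads, which moved the median strain difference of the loci outside the stretches to -0.70, -0.32 and 0.56 at 0, 12 and 48 h. A minimum mean of 50 leaves the 54 members that reach it, by its construction. Leaving out single libraries kept 81 to 97, and 47 were chosen in every such case. With a floor of 1 read 1 member was at or under it in all libraries of a strain, and with 10 reads 12. Over left-out libraries, 56 to 62 members changed at 12 h and 49 to 62 at 48 h. The median of the chromosome 3 loci that are not members, relative to other loci, was -0.99 to -0.94 and that of chromosome 15 with scaffold 33 0.82 to 0.87; these recalculations, those by class and those against library 19 or 22 alone were added after seeing the data. The 5 largest rises and falls at each time stayed past the threshold in 540 of 540 recalculations, and none reversed. The rise of Cre03.g163266 at 12 h is among them, though the minimum mean of the choice required it to rise. The other time changes named were not recalculated. Replicate numbers were not taken to pair the libraries, since not every pair passed 0.1: the correlations of same-numbered libraries' deviations were 0.15 to 0.22 at 0 h, 0.18, 0.01 and -0.03 at 12 h, and -0.08 and 0.06 at 48 h. With the number as a replicate block 56 members changed at 12 h and 57 at 48 h. A window of 15 or 41 loci, chosen after seeing the data, gave 200 or 206 loci on chromosome 3 and 80 or 73 on chromosome 15; the narrower one found 5 more runs elsewhere. Low members rest on few reads, and folds of loci at 0 are bounds.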
